A study of Homo sapiens with 11 samples.

Results

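Potassium channel genes were taken as all genes whose symbol starts with KCN in the platform annotation, which gave 78 genes on 84 probes, out of 14941 named genes and 22464 probes. By the fourth letter of the symbol they comprised 34 voltage-gated, 14 inward rectifier, 13 two-pore, 9 calcium-activated and 8 accessory genes. This letter puts the cytoplasmic beta subunits (KCNAB) with the voltage-gated and the membrane beta subunits (KCNMB) with the calcium-activated channels. The calcium-activated class also takes in KCNT2, which is a relative of these channels. RNA of RT4, a line from a human bladder papilloma, was measured on 9 arrays from cells on crECM, with 1 array each at 12 h (day 0.5) and on days 1, 2, 3, 4, 6, 7, 8 and 9, and on 2 arrays from cells on plastic. The crECM was Matrigel, a gel of basement membrane proteins from a mouse sarcoma, on which cells previously grown on plastic were seeded, and neither group carried a drug or a transgene in the labels. The crECM cells were released from the gel with Matrisperse, while the way cells on plastic were released is not given in the sources used here. The crECM arrays are time points of 1 line without replicates, and nothing states that the plastic arrays came from separate cultures, so the p-values measure only the spread between these arrays.

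Potassium channels let potassium ions cross membranes down their gradient and hold the membrane potential of resting cells. Voltage-gated channels open on depolarization, inward rectifiers pass current more readily into than out of the cell, two-pore channels carry leak current, and calcium-activated channels open as cytosolic calcium goes up. Accessory subunits set the traffic and gating of the pore-forming subunits. In urothelium and in tumor cells, potassium channels are known for roles in volume control, stretch responses and proliferation.

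The study defined "off-on" genes, within its hypervariable genes, by a mean log10 value above 1 on crECM and below 0 on plastic. These limits were applied here to all genes without the filter on variability, and 3 of the 78 potassium channel genes met them, KCNJ5, KCNA4 and KCNK10. The 3 genes were already known to be off-on when they were picked as markers, and they reached the tests through their crECM values with both plastic arrays at the floor, so their pattern is a description with no test. The sequences of 250 bases upstream of their annotated starts are shown because the data put these genes below the zero point on plastic. They are from RefSeq on GRCh38.p14, 5′ to 3′ on the strand of the gene, with capitals marking the GC box (GGGCGG on either strand, here read as CCGCCC). KCNA4 lies on the minus strand at chr11:30017031-30017280, KCNJ5 on the plus strand at chr11:128891106-128891355, and KCNK10 on the minus strand with 2 annotated starts, at chr14:88326913-88327162 and chr14:88270912-88271161.
KCNA4: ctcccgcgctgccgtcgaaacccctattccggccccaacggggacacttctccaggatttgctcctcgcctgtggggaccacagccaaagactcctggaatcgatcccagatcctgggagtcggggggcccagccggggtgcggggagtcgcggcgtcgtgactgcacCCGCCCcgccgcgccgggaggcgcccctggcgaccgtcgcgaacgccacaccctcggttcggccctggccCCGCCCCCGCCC
KCNJ5: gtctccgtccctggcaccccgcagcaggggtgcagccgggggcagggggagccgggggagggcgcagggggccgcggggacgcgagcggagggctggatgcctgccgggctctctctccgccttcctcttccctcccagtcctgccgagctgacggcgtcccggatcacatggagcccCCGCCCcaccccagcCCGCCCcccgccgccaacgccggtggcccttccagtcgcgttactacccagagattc
KCNK10, first start: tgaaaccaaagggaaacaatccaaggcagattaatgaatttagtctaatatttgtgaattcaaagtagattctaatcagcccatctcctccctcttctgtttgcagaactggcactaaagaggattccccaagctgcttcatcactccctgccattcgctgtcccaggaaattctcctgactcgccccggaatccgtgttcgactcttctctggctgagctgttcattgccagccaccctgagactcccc
KCNK10, second start: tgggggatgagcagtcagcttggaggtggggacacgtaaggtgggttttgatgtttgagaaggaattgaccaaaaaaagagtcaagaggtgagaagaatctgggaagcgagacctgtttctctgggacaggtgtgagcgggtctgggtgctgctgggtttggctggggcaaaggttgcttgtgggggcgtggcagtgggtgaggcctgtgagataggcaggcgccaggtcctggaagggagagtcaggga

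The KCNA4 window was 73.2% G and C with 3 GC boxes, and the KCNJ5 window was 75.2% G and C with 2 GC boxes. Both KCNK10 windows, at 48% and 56.8% G and C, held no GC box. None of the 4 windows held a TATA box, which was searched for as TATAAA on both strands, or a CCAAT box, which was searched for by the letters of its name. Neither an E-box, searched for as CACGTG, nor an AP-1 site, searched for with N for any base as TGANTCA, was found in them. A cyclic AMP response element, searched for as TGACGTCA, and the NF-kB consensus were likewise not found on either strand. Among 35116 such windows, 42.6% held a GC box, 10.7% a TATA box, 32.0% a CCAAT box, 6.34% an E-box, 6.57% an AP-1 site, 1.65% a cyclic AMP response element and 5.21% the NF-kB consensus. Adjacent GC boxes were counted apart, also where they abut. A GC box was in 49.5% of the 95 windows of the 60 potassium channel genes with an entry. The 3 off-on genes thus did not share any of the motifs searched.

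KCNJ5, a subunit of the G protein-gated inward rectifier of heart and adrenal cortex, had deposited values of 20.6, 18.2, 20.8, 21.9, 15.1, 22.4, 22.9, 19.5 and 17.2 noise SD on crECM from 12 h to day 9, while both plastic arrays were at the lowest value of their array. The deposited unit counts noise SDs over each array's own zero point, and values under 3 SD were set to 3 SD for tests and folds, so that a fold against such a group is a bound on the deposited scale only. KCNJ5 was at least 6.56-fold higher on crECM (log2 change 2.71), with no spread of the floored plastic arrays in this value. Its raw intensities were 205.3 to 458 on crECM, against -60.7 and -46.6 on plastic, where the median raw intensity of an array was 224 to 482 on crECM, against 162 and 140.45 on plastic. With 12 h at 20.6 SD, the level on the first array was within the range of the later days.

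KCNA4, a rapidly inactivating voltage-gated channel, had 9.56, 21.9, 17.2, 16.5, 17.8, 15.8, 20.4, 13.0 and 18.0 SD on crECM, and both plastic arrays were at their lowest value. It was at least 5.42-fold higher on crECM (log2 change 2.44). The 12 h array held its lowest crECM value, which the test of 12 h against the other days did not call (log2 difference -0.86, limma adjusted p = 0.114). KCNK10, a two-pore channel opened by lipids and membrane stretch, had 6.19, 11.9, 5.86, 14.5, 16.3, 14.3, 7.55, 8.92 and 13.4 SD on crECM, again with plastic at the lowest value. It was at least 3.44-fold higher on crECM (log2 change 1.78). Raw intensities were 116.5 to 428 for KCNA4 and 90.3 to 343.6 for KCNK10 on crECM, against -2.8 and -34.1 for KCNA4 and -28.6 and -78.2 for KCNK10 on plastic.

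The share of all named genes that met the off-on limits was 3.96%, against 3 of 78 potassium channel genes, so their count was near the background. The study listed potassium ion channels among the functional groups over-represented in its own off-on genes. Its list was drawn from hypervariable genes and grouped by ontology, so that result and this count cannot be compared directly. No potassium channel gene was on-off (0.335% of all named genes). KCNK10 was just inside the limit with a mean log10 value of 1.01 on crECM, and KCNA1, a voltage-gated channel of axons, was just outside it with 0.94. Both plastic arrays were at their lowest value for 14 of the 78 genes (7.78% of all named genes). Besides the 3 off-on genes and KCNA1 these were KCNF1, KCNJ1, KCNK15, KCNN3, KCNE4, KCNT2, KCNH1, KCNAB2, KCNH6 and KCNE3, of which KCNAB2, KCNH6 and KCNE3 were not tested and KCNF1 alone passed between crECM and plastic. The off-on calls of KCNJ5, KCNA4 and KCNK10 held with limits of 3 SD and 10 SD and with means of antilog values. They also held without the 12 h array, and KCNJ5 alone met the limits on every array. The 3 calls did not hold in rebuilt or quantile normalized values, and which step removed them was not tested. None of the 78 genes met the limits with values rebuilt from the raw intensities or with quantile normalization, and rebuilt values without the regression step gave KCNE1 and KCNH3 in place of these 3. Of all named genes, 0.817% met the limits in rebuilt values, 0.207% with quantile normalization and 2.89% without the regression step. The log2 changes of KCNJ5, KCNA4 and KCNK10 were 1.57, 1.37 and 0.88 in the rebuilt values. With quantile normalization those of KCNJ5 and KCNK10 were 1.44 and 0.64, and KCNK10 lost its call (limma adjusted p = 0.111).

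**Figure D1:**
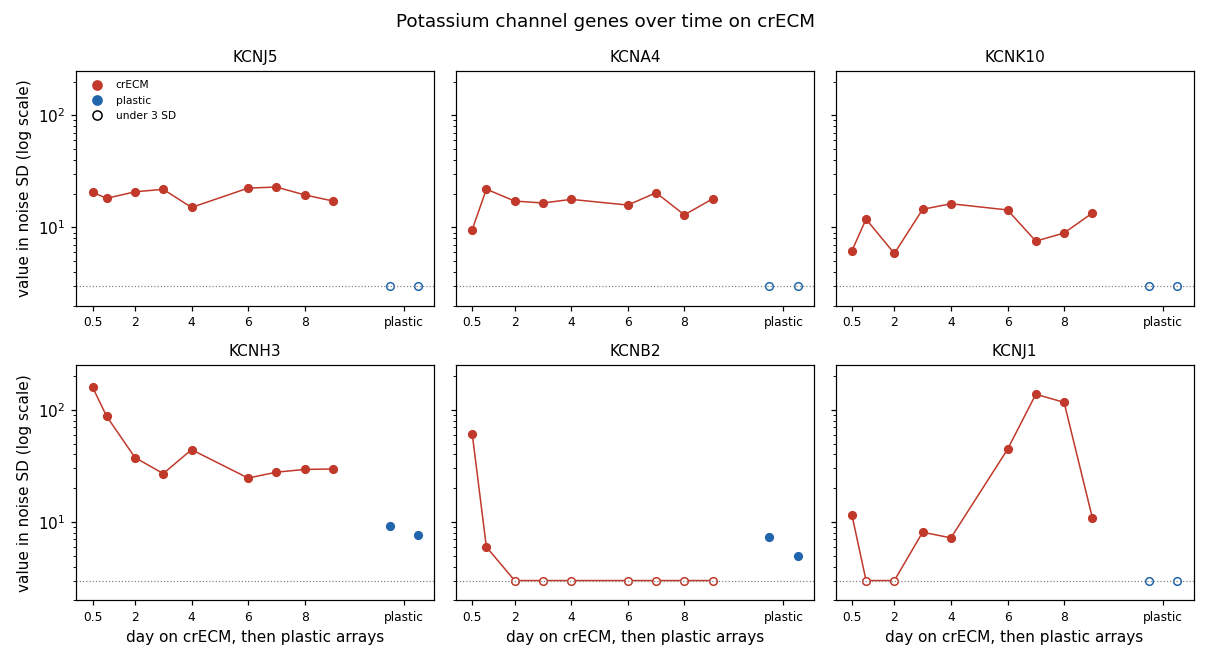
Deposited values in noise SD (log axis) of 6 potassium channel genes by day on crECM (red) and on the 2 plastic arrays (blue), with values under 3 SD drawn as open circles at the dotted line. KCNJ5, KCNA4 and KCNK10 were above 5 SD on all 9 crECM arrays and under 3 SD on plastic, KCNH3 and KCNB2 were highest at 12 h, and KCNJ1 was highest on day 7.

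Over the 11 arrays, the genes most alike in pattern to KCNJ5 were KCNAB3 (Pearson r = 0.94) and KCNA4 (r = 0.93), those to KCNA4 were KCND1 (r = 0.94) and KCNJ5, and those to KCNK10 were KCNJ8 (r = 0.86) and KCNA4 (r = 0.85). These values describe 11 arrays that fall into 2 groups. Within the 9 crECM arrays, r was 0.60 for KCNJ5 and KCNAB3, and -0.17 for KCNJ5 and KCNA4.

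A mean of at least 3 SD (from the mean of log10 values), the threshold of the study for expression, was reached by 62 of the 78 genes on crECM and by 60 on plastic, against 87.3% of all named genes on crECM and 87% on plastic. All 11 arrays were above 3 SD for 51 of the 78 genes (76.8% of all named genes). The mean passed 3 SD on crECM alone for KCNA1, KCNA4, KCNE4, KCNJ5, KCNK10, KCNMB4 and KCNQ5, and on plastic alone for KCNB2, KCNC1, KCNK6, KCNK9 and KCNK17. With the noise peak taken from raw intensities instead, 27 of the 78 genes reached 3 SD on plastic and 60 on crECM. Of all probes, 53.2% and 44.5% were then above 3 SD on the 2 plastic arrays, and 76.3% to 85.4% on the crECM arrays. A deposited value of 3 SD was equal to a raw intensity of 52.3 to 135.9 on the crECM arrays, but of 13.4 and 9.93 on the plastic arrays. The zero point that the deposited values imply was 28 to 62 on crECM, and 4 and 2 on plastic, although the noise peak had its mode at 29.9 to 63.4 on crECM and at 28.9 and 28.8 on plastic. Regressing deposited log10 values on raw ones gave slopes of 0.916 to 1.29 on crECM and of 0.699 and 0.684 on plastic, and substrate and array handling cannot be told apart.

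Markers of other tissues were also above 3 SD in these cells, as were most named genes. The share of all named genes whose mean value reached this level was 87.3% on crECM and 87% on plastic. The counts of the marker lists were not tested against these shares. Mean values reached 3 SD for 7 of 8 neuron markers on crECM and 5 on plastic, for 5 of 7 striated muscle markers on crECM and 4 on plastic, for 4 of 5 blood markers on crECM and 5 on plastic, and for 11 of 15 urothelial and epithelial markers on crECM and all 15 on plastic. The summed level of the neuron list was 132.3 to 173 SD on crECM, against 161.5 and 166.2 SD on plastic, with SYN1, GAP43 and NEFL at the lowest value on plastic. In that list SYN1 was higher on crECM, while SYT1 and MAP2 were lower (log2 changes -0.50 and -0.64). That of the striated muscle list was 143.7 to 261.4 SD on crECM, against 152.6 and 159.9 SD on plastic, with MYH6, TNNI3 and MYOG at the lowest value on plastic, of which MYH6 was above 3 SD on 1 crECM array and MYOG on none. In that list TNNI3, MYH7 and MYOD1 were higher on crECM, while ACTC1 and CKM were lower (log2 changes -0.84 and -0.51). Of 8 mesenchyme markers, 5 reached 3 SD in the mean on crECM and 6 on plastic. PDGFRB, COL1A1 and CDH2 were higher on crECM, and COL1A2 and COL3A1 lower. In the blood list CD3E was higher (log2 change 2.64), while HBA1 and HBB were lower. In the urothelial and epithelial list CDH1, KRT13 and KRT20 were lower and none was higher. KRT13 and COL1A2 were under 3 SD on all crECM arrays and passed the filter through plastic only. In the rebuilt values 0 of 12 tested urothelial and epithelial genes and 0 of 7 tested mesenchyme genes were lower. The lists' part in the channel results was not tested. In bulk RNA, fewer expressing cells and less RNA per cell cannot be told apart.

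**Figure D2:**
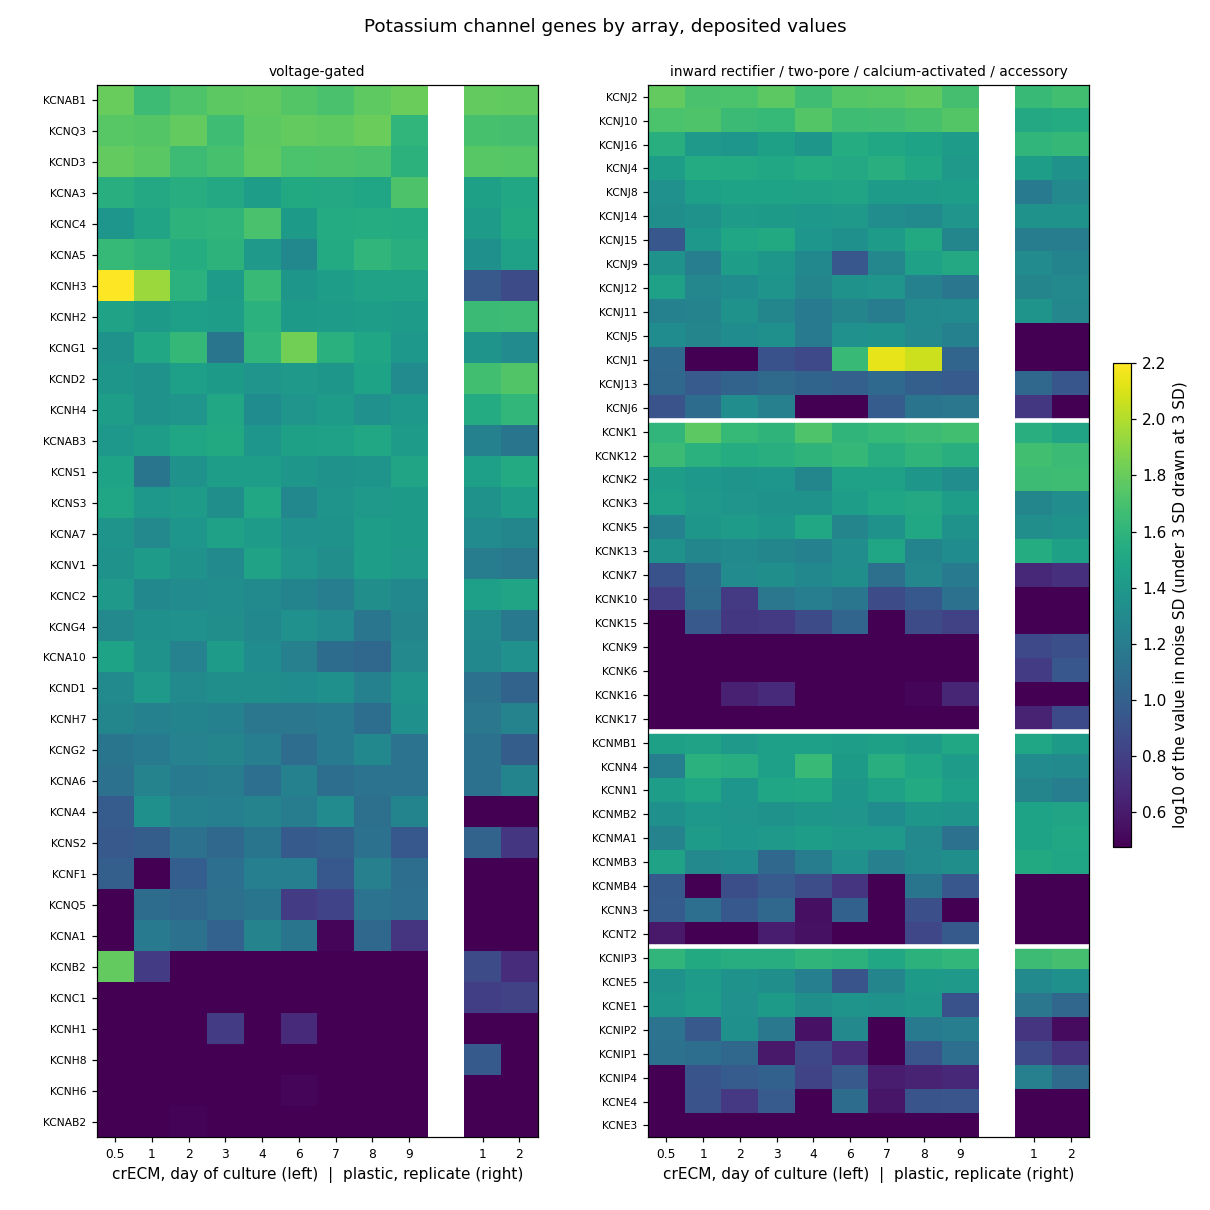
Log10 of the deposited value in noise SD (color, values under 3 SD drawn at 3 SD) for the 78 potassium channel genes, with the 9 crECM arrays by day to the left and the 2 plastic arrays to the right of the gap in each panel. White lines part the inward rectifier, two-pore, calcium-activated and accessory classes. The 51 genes above 3 SD on every array fill the upper part of each class.

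Between crECM and plastic, 15 of the 74 tested potassium channel genes were higher (20.3%) and 16 lower (21.6%), against 24.2% higher and 20.1% lower of all 14517 tested genes, so their shares were near the background in both directions. The median log2 change was 0.19 over the potassium channel genes and 0.09 over all tested genes. The 9 crECM arrays were all above both plastic arrays for 13 genes (22.3% of all tested genes) and all below for 16 (22.1%). The 4 genes not tested, KCNAB2, KCNE3, KCNH6 and KCNH8, were above 3 SD on no more than 1 array. The split was sensitive to the scaling. Rebuilt values gave 22 genes higher and 4 lower of 70 tested, where 5161 of all 13648 tested genes were higher and 1171 lower. Limma on rebuilt values without the regression step gave 53 higher and 0 lower (54 and 0 at an unadjusted p under 0.05). There 7 of the 16 lower calls were called higher, and the share over all genes is not given for that setting. Quantile normalization gave 10 higher and 12 lower and kept 9 and 11 of the calls, losing KCND1, KCNH3, KCNK10, KCNK3, KCNQ5 and KCNV1 among the higher ones, and leaving out the 12 h array gave 20 higher and 17 lower. The median log2 change of all tested probes was 0.25 in the rebuilt values and 1.27 in those without the regression step, against 0.06 in the deposited ones. Without plastic replicate 1, 11 of the 15 higher and 4 of the 16 lower calls were kept, and without plastic replicate 2, 8 and 3, with the lone plastic array assumed to vary like the others. KCNK9, KCNK6, KCNC1 and KCNK17 were above 3 SD on the plastic arrays only, so leaving out either one took them out of the test. Higher without either array were KCNK7, KCNAB3, KCNN1, KCNJ8 and KCNJ10, and lower without either were KCND2, KCNH2 and KCNK2. KCNJ5, KCNA4 and KCNK10 also stayed higher, but both their plastic arrays were at the floor. Leaving out either one could not alter their log2 changes, so for them this is no check. The 43 genes that did not pass had log2 changes from -0.47 (KCNMA1) to 2.35 (KCNJ1).

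**Figure D3:**
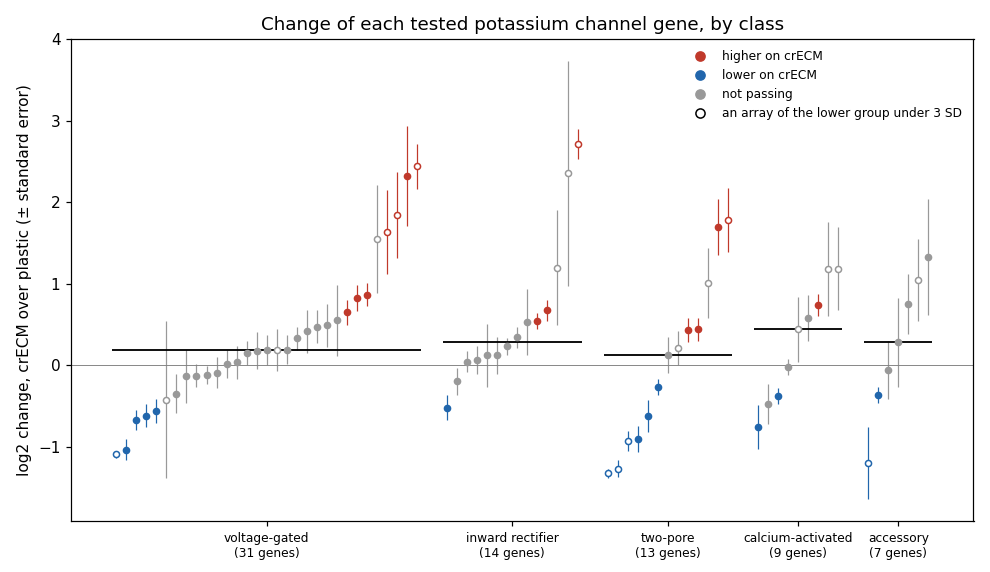
Log2 change, crECM over plastic, with its standard error for the 74 tested potassium channel genes, ordered by size within each class. Red genes passed as higher and blue genes as lower on crECM (adjusted p threshold 0.05), grey genes did not pass, open circles mark genes with an array of the lower group under 3 SD, and black bars are class medians, which lay between 0.13 (two-pore) and 0.44 (calcium-activated).

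Among the voltage-gated channels, 7 of 31 tested genes were higher (22.6%) and 5 lower (16.1%) on crECM, with a median log2 change of 0.19. Of all tested genes, 24.2% were higher and 20.1% lower, so these shares were near the background. Higher besides KCNA4 were KCNH3, KCNF1, KCNQ5, KCNAB3, KCND1 and KCNV1. KCNH3, an ether-a-go-go-like channel known from brain, had 159.7, 87.5, 37.6, 27.0, 44.2, 24.6, 27.8, 29.4 and 29.7 SD on crECM, against 9.12 and 7.58 SD on plastic. All crECM arrays were above plastic, by 5.00-fold in the mean (log2 change 2.32, SE 0.611, limma adjusted p = 0.00938), and the 12 h and day 1 arrays were far above the rest. The 12 h value of KCNH3 did not pass against days 1 to 9 (log2 difference 2.18, limma adjusted p = 0.0519).

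KCND1, a pore of the A-type current, had 17.2 to 25.4 SD on crECM with a median of 21.5, against 13.4 and 10.5 SD on plastic (log2 change 0.83, SE 0.157, limma adjusted p = 0.00136). KCNAB3, a beta subunit of the channels of the KCNA family, had 24.0 to 33.2 SD on crECM with a median of 28.5, against 17.2 and 14.1 SD on plastic (log2 change 0.87, SE 0.136, limma adjusted p = 0.000366). KCNV1, a subunit that carries no current alone and modifies other channels, had 19.6 to 29.7 SD on crECM with a median of 23.9, against 16.2 and 14.7 SD on plastic (log2 change 0.65). In these 3 genes the groups did not overlap. KCNF1, another silent subunit, and KCNQ5, a channel of the M-current family, passed with log2 changes of 1.85 and 1.63, but each had a crECM array under 3 SD, as both plastic arrays were. Both are named as called genes with overlapping groups, after their values were seen.

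Lower voltage-gated genes were KCND2, KCNH2, KCNH4, KCNC2 and KCNC1. KCND2, a pore of the same A-type family as KCND1, had 24.5, 22.8, 28.3, 25.9, 23.8, 25.3, 24.6, 30.0 and 20.2 SD on crECM, against 47.9 and 54.1 SD on plastic. It was 2.04-fold lower on crECM (log2 change -1.03, SE 0.129, limma adjusted p = 6.69e-05), which is the opposite direction to KCND1, while KCND3 did not pass (log2 change -0.13). KCNH2, the channel of the rapid repolarizing current of the heart, had 26.1 to 37.9 SD on crECM with a median of 27.3, against 44.5 and 45.9 SD on plastic (log2 change -0.67, SE 0.124, limma adjusted p = 0.00111). KCNH4, an ether-a-go-go-like channel as KCNH3, had 20.6 to 31.7 SD on crECM with a median of 23.8, against 34.4 and 41.4 SD on plastic (log2 change -0.61, SE 0.146, limma adjusted p = 0.00536). The 3 called members of the KCNH family thus differed in direction. KCND2, KCNH2 and KCNH4 stayed lower in the rebuilt values (log2 changes -0.60, -0.35 and -0.30), and without the regression step KCNH4 was called higher (log2 change 0.65, limma adjusted p = 0.0363) and neither of the others was called.

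Of the inward rectifiers, 3 of 14 were higher (21.4%, all tested genes 24.2%) and 1 lower (7.14%, all tested genes 20.1%). Their median log2 change was 0.29. Besides KCNJ5, KCNJ8 and KCNJ10 were higher. KCNJ8, a pore of ATP-sensitive channels in vascular muscle, had 22.4, 28.2, 29.9, 30.1, 29.4, 30.5, 26.7, 26.9 and 27.4 SD on crECM, against 15.7 and 19.4 SD on plastic (log2 change 0.67, SE 0.124, limma adjusted p = 0.00112). KCNJ10, which clears potassium in glia and serves the kidney tubule, had 42.8 to 54.5 SD on crECM with a median of 49.8, against 32.7 and 34.6 SD on plastic (log2 change 0.55, SE 0.0963, limma adjusted p = 0.00083). KCNJ16, a partner subunit of KCNJ10, went the other way, with 24.2 to 36.5 SD on crECM, against 40.6 and 41.8 SD on plastic (log2 change -0.52, limma adjusted p = 0.0187), and lost its call in the rebuilt values. KCNJ2, the classical strong inward rectifier, had 46.8 to 61.4 SD on crECM, against 44.5 and 48.0 SD on plastic, and did not pass (log2 change 0.23, limma adjusted p = 0.0833), but it was called higher in the rebuilt values (adjusted p = 0.00638) and with quantile normalization (adjusted p = 0.0247).

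The two-pore channels had 4 genes higher and 6 lower among 13 tested, with a median log2 change of 0.13, against 24.2% higher and 20.1% lower of all tested genes. In the rebuilt values 4 were higher and 1 lower of 10 tested, where 5161 of all 13648 tested genes were higher and 1171 lower. Besides KCNK10, KCNK7, KCNK1 and KCNK3 were higher. KCNK7, a subunit for which no current has been found in expressing cells, had 8.15, 12.3, 20.5, 21.5, 19.1, 21.8, 12.9, 18.8 and 15.5 SD on crECM, against 4.64 and 5.23 SD on plastic. It was 3.25-fold higher on crECM (log2 change 1.70, SE 0.344, limma adjusted p = 0.00202). KCNK1, a weakly conducting leak channel, had 39.6 to 58.2 SD on crECM, against 36.5 and 30.4 SD on plastic (log2 change 0.44, limma adjusted p = 0.0247). KCNK3, a leak channel closed by acid, was higher by a log2 change of 0.44 as well.

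The lower two-pore genes were KCNK9, KCNK6, KCNK17, KCNK2, KCNK13 and KCNK12. KCNK2, a stretch- and lipid-gated channel of the same family as KCNK10, had 27.9, 24.8, 23.5, 24.1, 18.6, 29.0, 29.1, 24.4 and 20.9 SD on crECM, against 45.3 and 46.0 SD on plastic. It was 1.87-fold lower on crECM (log2 change -0.90, SE 0.155, limma adjusted p = 0.000713), opposite to KCNK10, and the call held in the rebuilt values (log2 change -0.51). KCNK12, another two-pore subunit, had 34.9 to 44.7 SD on crECM, against 47.6 and 44.8 SD on plastic (log2 change -0.26, limma adjusted p = 0.0391). KCNK13, its closest relative, was lower by a log2 change of -0.62 with overlapping groups and is named for completing the list.

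KCNK9, an acid-sensitive leak channel, KCNK6, a two-pore channel, and KCNK17, a channel opened at alkaline pH, were under 3 SD on all crECM arrays, against 7.15 and 7.90 SD for KCNK9, 5.94 and 8.78 SD for KCNK6, and 4.46 and 7.26 SD for KCNK17 on plastic. The voltage-gated KCNC1, a channel of fast-firing neurons, was alike, with every crECM array under 3 SD, against 6.26 and 6.49 SD on plastic. All 4 counted as lower because their plastic values passed the filter, and no fold is given. The raw intensities were not lower on crECM in their means: they averaged 36.4 for KCNK9, 82.7 for KCNK6, 44.8 for KCNC1 and 58.4 for KCNK17 on crECM, against 35.6, 34.6, 28.7 and 25.6 on plastic, which lay within 1 noise SD (39.5 and 45.8) of the mode of the plastic noise peak. None of the 4 was above 3 SD on 2 arrays in the rebuilt values, where they were not tested. Since a whole group sits at 3 SD, their small standard errors have no spread of the crECM group in them.

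**Figure D4:**
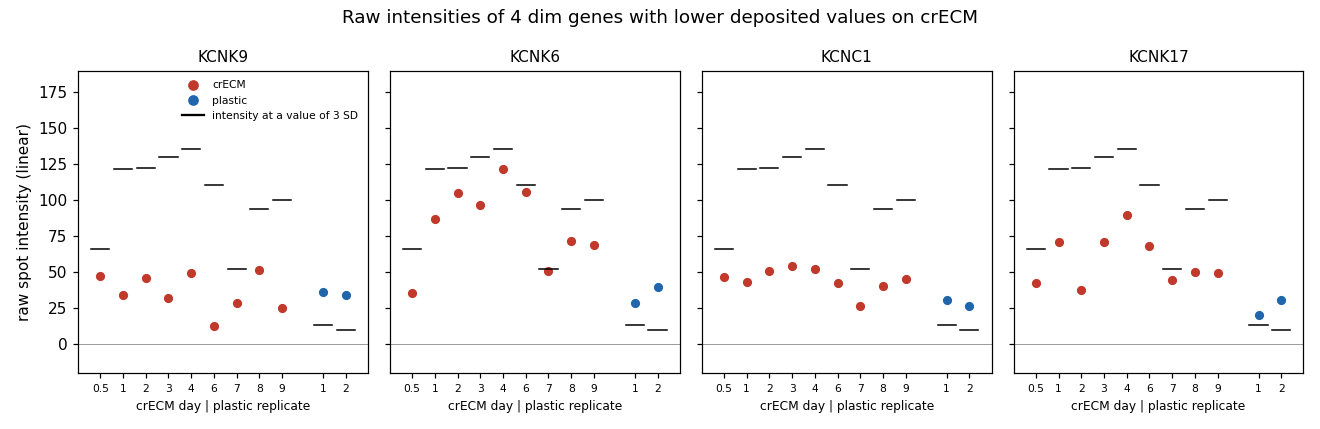
Raw spot intensity (linear axis) of KCNK9, KCNK6, KCNC1 and KCNK17 on the 9 crECM arrays by day (red) and the 2 plastic arrays (blue). Black dashes mark the raw intensity that equals a deposited value of 3 SD on each array, 52.3 to 135.9 on crECM and 13.4 and 9.93 on plastic. The crECM points lie under their dashes and the plastic points over theirs.

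Among the calcium-activated channels and their beta subunits, 1 of 9 genes was higher and 2 were lower, with a median log2 change of 0.44. All tested genes had 24.2% higher and 20.1% lower. KCNN1, a small-conductance channel, had 24.2 to 34.0 SD on crECM with a median of 28.9, against 18.3 and 16.4 SD on plastic (log2 change 0.74, SE 0.133, limma adjusted p = 0.000962). KCNN4, the intermediate-conductance channel of blood cells and epithelia, had 16.5 to 43.4 SD on crECM, against 20.4 and 20.1 SD on plastic, and did not pass (log2 change 0.58, limma adjusted p = 0.109). It was called higher without the 12 h array (log2 change 0.69, limma adjusted p = 0.00922) and in the rebuilt values (adjusted p = 0.0211). The lower genes were beta subunits of the large-conductance channel: KCNMB3 had 11.2 to 29.6 SD on crECM, against 33.6 and 31.1 SD on plastic (log2 change -0.76, SE 0.27, limma adjusted p = 0.0396), and KCNMB2 was lower by a log2 change of -0.37. KCNMB1, the beta subunit of smooth muscle, had 25.7 to 32.4 SD on crECM, against 31.3 and 26.1 SD on plastic (log2 change -0.01).

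KCNMA1, the pore of the large-conductance channel, had 3 probes that differed. The brightest had 13.4 to 27.9 SD on crECM, against 30.0 and 31.9 SD on plastic, and did not pass (log2 change -0.47, limma adjusted p = 0.136). The second did not pass either (log2 change 0.40), and the third was higher on crECM with 13.7 to 27.2 SD, against 7.81 and 6.20 SD on plastic (log2 change 1.62, limma adjusted p = 0.000562). The direction for KCNMA1 is therefore uncertain on these arrays.

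No accessory gene of the 7 tested was higher by limma (none at an unadjusted p under 0.05 either) and 2 were lower, with a median log2 change of 0.28. The shares over all tested genes were 24.2% higher and 20.1% lower. KCNIP4, which binds KCND channels and senses calcium, had 1.82, 8.35, 9.51, 10.2, 6.77, 9.03, 4.13, 4.44 and 4.70 SD on crECM, against 16.9 and 11.8 SD on plastic. It was lower on crECM (log2 change -1.20, SE 0.442, limma adjusted p = 0.0451) and lost the call in the rebuilt values (adjusted p = 0.175). KCNIP3, a relative that also acts as a transcriptional repressor, had probes called in opposite directions. Its brightest probe had 32.0 to 41.3 SD on crECM, against 45.8 and 49.5 SD on plastic (log2 change -0.36, limma adjusted p = 0.0128), while the other 2 probes were higher on crECM by log2 changes of 0.64 and 1.36. KCNE5, a small membrane subunit, had 8.42 to 26.6 SD on crECM, against 19.7 and 22.0 SD on plastic (log2 change -0.06).

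With the beta subunits moved from the pore classes, 1 of 13 accessory genes was higher and 4 were lower, 6 of 29 voltage-gated genes were higher and 5 lower, and 1 of 5 calcium-activated genes was higher and 0 lower. The higher one was KCNAB3 and the lower ones KCNIP3, KCNIP4, KCNMB2 and KCNMB3. KCNAB1, the other tested beta subunit of the KCNA family, had 45.8 to 63.8 SD on crECM, against 61.5 and 60.4 SD on plastic (log2 change -0.12, limma adjusted p = 0.421). KCNQ3, a pore of the M-current, likewise did not pass, with 40.7 to 64.3 SD on crECM, against 50.2 and 49.6 SD on plastic (log2 change 0.15). The differences between classes, and from the 24.2% higher and 20.1% lower of all tested genes, were not tested.

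**Figure D5:**
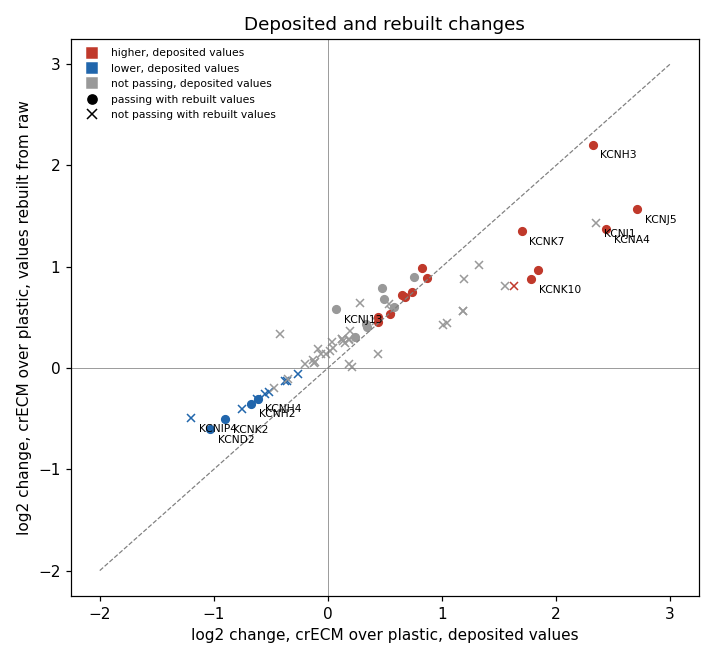
Log2 change, crECM over plastic, in values rebuilt from the raw intensities (vertical) against that in the deposited values (horizontal) for the 70 potassium channel genes with both. Colors give the call in the deposited values, circles pass in the rebuilt values (26 genes) and crosses do not. The points of the higher genes are mostly circles and those of the lower genes mostly crosses, with 14 of 15 and 4 of 16 calls kept.

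On crECM, KCNB2 was higher at 12 h than on days 1 to 9 (2.11% of 13760 genes were) and KCNJ15 was lower (2.2%), out of 70 potassium channel genes tested. KCNB2, a delayed rectifier, had 61.0 SD at 12 h, 5.99 SD on day 1 and under 3 SD on each later day, against 7.41 and 4.95 SD on plastic, a log2 difference of 4.22 at 12 h (SE 0.39, limma adjusted p = 0.000383). Its raw intensities were 548.6 at 12 h, 180.7 on day 1 and at most 109.3 later, against 38.4 and 18.3 on plastic. KCNJ15, an inward rectifier of kidney and stomach epithelium, had 8.84 SD at 12 h and 18.6 to 33.6 SD on later days, against 16.1 and 16.1 SD on plastic, a log2 difference of -1.58 at 12 h (limma adjusted p = 0.0195). Each rests on 1 array at 12 h, which is assumed to vary like the others. No potassium channel gene passed the trend over log2 of the day (0.00727% of all genes did, upward), and 1 of 70 had an upward and 3 a downward slope at an unadjusted p under 0.05 in this limma fit.

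KCNJ1, KCNB2, KCNIP2 and KCNJ6 had the largest spread of log2 values over the crECM days. KCNJ1, the secretory channel of the kidney tubule, had 11.6 SD at 12 h, under 3 SD on days 1 and 2, 8.10 and 7.21 SD on days 3 and 4, 44.4, 137.8 and 116.7 SD on days 6, 7 and 8 and 10.9 SD on day 9, with both plastic arrays at their lowest value. Its raw intensities were 731.4, 1615 and 1443 on days 6, 7 and 8. The values of days 6 to 8 were each more than those of the other days, but each is 1 array, and KCNJ1 did not pass between crECM and plastic (limma adjusted p = 0.186). KCNIP2, another KCND partner, was between 3.66 and 21.9 SD on 8 crECM arrays and under 3 SD on day 7, against 5.55 and 3.39 SD on plastic. KCNJ6, a G protein-gated inward rectifier of neurons, was under 3 SD on days 4 and 6 and between 8.26 and 21.1 SD on the other crECM days, against 5.69 SD and a value under 3 SD on plastic.

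Of 46 other genes of potassium transport, 36 were measured and tested, with 8 higher (22.2%) and 8 lower (22.2%) on crECM. Over all tested genes the shares were 24.2% and 20.1%. Higher were 4 of the 6 measured FXYD proteins, small regulators of the sodium pump, of which FXYD1, FXYD6 and FXYD7 had both plastic arrays at the lowest value, and 2 of the 6 were higher in the rebuilt values. FXYD2, the pump's gamma subunit in kidney, had 36.6 to 49.5 SD on crECM, against 16.2 and 18.6 SD on plastic (log2 change 1.36, SE 0.104, limma adjusted p = 9.92e-07). FXYD1 was at least 4.07-fold higher, with 4.83 to 21.4 SD on crECM and plastic at the lowest value. SLC12A4, a potassium-chloride cotransporter, had 13.2 to 42.0 SD on crECM, against 9.58 and 8.73 SD on plastic (2.83-fold higher), and DLG4, a scaffold that clusters KCNA channels, was at least 4.86-fold higher.

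Lower were HCN4 and HCN2, pacemaker channels opened by hyperpolarization, with log2 changes of -0.95 and -0.64, DLG1, a relative of DLG4, with -0.71, and ATP1B2, a beta subunit of the sodium pump, with -0.56. DLG1 had 20.2 to 30.9 SD on crECM, against 36.2 and 41.2 SD on plastic. HCN4 had 1 crECM array over 3 SD, against 4.93 and 7.18 SD on plastic. In the rebuilt values 9 of the 36 genes were higher and 2 lower, where 5161 of all 13648 tested genes were higher and 1171 lower.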

How the data were processed

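RNA of RT4 cells was labeled with Cy3 and hybridized to 1-color spotted arrays of 22464 long oligonucleotides. The authors deposited log10 values, in which intensities over the zero point were divided by the noise SD, log10 transformed and adjusted between arrays by robust linear regression. They also deposited raw intensity values, whose background treatment is not given in the sources used here. For 17043 probes the annotation gave 1 symbol, for 172 several and for 5249 none. A further probe shared by KCNK15 and another gene was left out, and potassium channel probes had no mismatch between deposited and raw values (tolerance 0.05 on log10).

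Tests used limma 3.58.1 in R 4.3.3, with eBayes and a trend, on log2 of the deposited values with a floor of 3 SD, and Benjamini-Hochberg adjustment over all probes above 3 SD on at least 2 arrays. The fit was tested on simulated normal values, with changes planted only in probes well above the floor. That test did not cover genes with both plastic arrays at the floor. The probe with the highest mean over 11 arrays stands for a gene. Rebuilt values used the mode and SD of the noise peak per array, log10 and robust regression. Python 3.11.15 with numpy 2.4.6, pandas 2.3.3 and matplotlib 3.10.9 was used for counts and plots. The number of arrays limits the precision.

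Named were the off-on genes, in each direction the 10 called genes of largest change and no overlap, the 2 genes of each class with the highest mean, genes called at 12 h or in the trend, the 4 most variable over days, genes with probes in opposite directions, and up to 4 other transport genes in each direction. Other names were added after their values were seen. Members, lists and tests were chosen with earlier results of these data known. Alternatives were other values, floors, filters and fits and leaving out arrays, and 1, the rebuilt values with the zero point of the deposited values, was added after seeing the data. Promoters were matched by symbol for 60 of the 78 genes.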

Additional observations from a re-analysis of the deposited data

Results flagged for a closer look

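In 13 of 72 potassium channel genes, 1 crECM array stood apart from the other 8 by Dixon's criterion. A nominal rate of 0.05 would give 3.6, but it assumes normal values, which the floor breaks. The share over all named genes was not computed, so no excess is read from this count. Each crECM array is another day, so a time course and a single deviating array cannot be told apart. At 12 h, KCNB2 was far above the other days with 61.0 SD, and KCNJ15 with 8.84 SD and KCNJ8 with 22.4 SD were the lowest. Lowest on day 1 were KCNS1 with 14.0 SD and KCNF1, which was under the floor of 3 SD there. KCNH2 was highest on day 4 with 37.9 SD and KCNK13 on day 7 with 31.3 SD. KCNE5 was lowest on day 6 with 8.42 SD, KCNG4 on day 8 with 14.3 SD and KCNE1 on day 9 with 8.13 SD, while KCNA3 was highest on day 9 with 52.7 SD. KCNAB2 on day 2 with 3.11 SD and KCNH6 on day 6 with 3.21 SD were just over the floor, with all other crECM arrays under it, so that the floor alone sets these 2 apart. KCNH2 and KCNJ8 did not overlap with plastic despite these arrays.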

How the results depend on the processing

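No paired analysis was possible because the labels give the crECM arrays a day and no replicate number. Of the 15 potassium channel genes higher on crECM, 8 to 11 remained without either plastic array, and 53 were higher without the regression step. The 16 lower calls came to 3 to 4 without either plastic array, 10 with the filter at 5 SD (both settings leave KCNC1, KCNK6, KCNK9 and KCNK17 untested, as they passed 3 SD on plastic only), 10 with no floor, 4 in rebuilt values, 10 in rebuilt values with the zero point of the deposited values, and 0 without the regression step. The other potassium transport genes gave 4 higher with quantile normalization, 27 higher and 0 lower without the regression step, 3 higher and 2 to 3 lower without either plastic array, and 2 and 3 lower in the 2 other rebuilt sets. At 12 h, quantile normalization gave 2 higher and 0 lower (limma, 3 and 4 at an unadjusted p under 0.05), and leaving out the regression step 2 higher and 9 lower. The off-on count was 0 in rebuilt and in quantile normalized values, 2 without the regression step (KCNE1 and KCNH3), 7 with means of antilog values (adding KCNA1, KCNF1, KCNJ1 and KCNQ5), 1 when every array had to pass (KCNJ5) and 5 without the 12 h array (adding KCNA1 and KCNQ5). Over all named genes the off-on shares were 0.817%, 0.207%, 2.89%, 3.41%, 0.716% and 4.23%, in the same order of settings. With the noise measured on raw intensities, 27 genes were expressed on plastic, where 53.2% and 44.5% of all probes were above 3 SD. With beta subunits as accessory, calcium-activated genes had 0 lower, and accessory genes 1 higher and 4 lower.

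Over 516 values of 37 gene results, 435 kept direction and side of the threshold, 45 lost and 12 gained a call, and 24 changed sign. Only tested genes were counted, so settings that left KCNC1, KCNK6, KCNK9 and KCNK17 untested are not among the lost calls. A gene above every floor on all arrays kept the same log2 change under other floors by construction. Without the regression step the log2 change was 0.63 for KCNAB1, 0.37 for KCNB2, 1.67 for KCNE5, 0.42 for KCNH2, 0.65 for KCNH4, 0.64 for KCNIP3, 0.49 for KCNIP4, 0.76 for KCNK12, 0.23 for KCNK2, 1.47 for KCNMB1 and 0.69 for KCNMB3. In rebuilt values it was 0.0571 for KCNAB1, 0.33 for KCNB2, 0.14 for KCNE5 and 0.14 for KCNMB1, and with the zero point of the deposited values 0.0638 for KCNAB1, 0.0196 for KCNE5 and 0.0735 for KCNMB1. KCNB2 had 0.15 with a floor of 5 SD, KCNIP2 -0.15 with no floor, KCNIP3 0.64 as the median of its probes, and KCNMB1 0.00407 with quantile normalization. KCNE5 had -0.14 to 0.019 without either plastic replicate, and KCNMB1 had 0.12 without plastic replicate 1. The causes were not tested.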
